A study of Mus musculus with 4 samples.

Results

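Camk2b and Trpm2 are genes of calcium signalling whose unannotated transcripts were followed through 4 RNA-seq libraries of mouse granulocyte-monocyte progenitors. The members were every listed transcript of gene 12323 (Camk2b) or gene 28240 (Trpm2), 7 transcripts in all, 1 from Camk2b and 6 from Trpm2. They belong to 2 of the 5059 annotated genes with such a transcript in any library. The genes were picked because of values measured in these same libraries (a higher level of Camk2b and a form of Trpm2 listed in 1 genotype alone), so the values below describe that difference and carry no test of it.

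The libraries compared mice deficient in MST1, taken here as the Hippo-pathway kinase encoded by Stk4, with wild-type mice, with 2 libraries in each group and each library made from cells pooled from 10 mice. All 4 came from progenitors sorted from bone marrow, kept in medium with 10% serum and given no drug. The labels name no allele, strain, age or sex, and do not say whether the deficiency covers the whole body or a cell lineage. Poly(A) RNA was captured on oligo-dT beads and amplified by PCR. The p-values below set a group difference against the spread between 2 pools per group, estimated with information shared across genes or transcripts.

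Calcium ions carry signals from surface receptors into the cell, entering through membrane channels or leaving the endoplasmic reticulum, and they act largely by binding calmodulin. Camk2b encodes the beta subunit of calcium/calmodulin-dependent kinase II, a multi-subunit kinase that phosphorylates many proteins once calmodulin binds it and that is best known from nerve cells, where the beta subunit also holds on to actin filaments. Trpm2 encodes a cation channel of the plasma membrane that opens when ADP-ribose and calcium bind it. It is known in neutrophils and monocytes, the descendants of these progenitors, as a channel that lets calcium in during oxidative stress.

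Camk2b lies on chromosome 11, from 5969629 to 6066357, on the minus strand, and Trpm2 lies on chromosome 10, from 77907722 to 77969909, also on the minus strand (gene positions from RefSeq on GRCm38.p6; the submitters name mm10, which is GRCm38). Each transcript is named below by its number and length, its exons not given in the sources used here. Around a start site of each gene, 300 bases are shown (250 before it and 50 from it on). They are the only regulatory stretch that can be read for both genes. These bases come from RefSeq on GRCm38.p6, on the minus strand, at chr11:6065699-6065998 for Camk2b and chr10:77969823-77970122 for Trpm2. The Camk2b window lies wholly inside the gene span above, so its positions are counted from a start site within the gene. Capitals mark the letters of any motif found.
Camk2b: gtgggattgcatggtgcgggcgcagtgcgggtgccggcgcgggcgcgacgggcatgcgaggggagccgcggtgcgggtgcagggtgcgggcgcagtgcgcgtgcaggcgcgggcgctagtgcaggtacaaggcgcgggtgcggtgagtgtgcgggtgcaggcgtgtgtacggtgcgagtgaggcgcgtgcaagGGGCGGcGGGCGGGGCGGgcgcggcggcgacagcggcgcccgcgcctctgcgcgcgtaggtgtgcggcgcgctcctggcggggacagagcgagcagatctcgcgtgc
Trpm2: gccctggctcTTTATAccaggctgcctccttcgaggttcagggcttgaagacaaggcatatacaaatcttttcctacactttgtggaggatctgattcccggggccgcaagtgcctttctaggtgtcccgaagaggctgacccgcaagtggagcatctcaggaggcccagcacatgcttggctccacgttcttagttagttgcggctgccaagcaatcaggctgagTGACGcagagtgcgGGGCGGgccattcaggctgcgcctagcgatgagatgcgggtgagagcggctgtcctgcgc

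The start region of Camk2b was 77.3% G and C with 51 CG pairs, against a median of 52.7% and 7 CG pairs over 32851 promoter windows of the same length. That of Trpm2 was 58.3% G and C with 15 CG pairs. Both strands were searched for GGAATG, bound by TEAD factors, and for GGGCGG, bound by Sp1. The other motifs were TATAAA, the TATA box, and GAGGAA, bound by PU.1. The cyclic AMP response element was sought in full, as TGACGTCA, and by its shorter form TGACG, which the full one contains. GGGCGG was found 3 times in the Camk2b window, at -57, -50 and -45 from the start with the last 2 matches overlapping by 1 base, and once in the Trpm2 window, at -10. It occurs in 35.7% of all windows. The Trpm2 window also held TATAAA on the opposite strand at -240, a match found in 13.6% of windows, and TGACG at -24, found in 20.8%. GGAATG (14.7% of windows), the full TGACGTCA (1.8%) and GAGGAA (28.3%) were in neither window.

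Camk2b was listed with 1 unannotated transcript, novel_T001113, of 906 bases, and this transcript was abundant in all 4 libraries. It had 434 and 280 FPKM (an estimated count corrected for transcript length and sequencing depth) in the MST1-deficient libraries of replicates 1 and 2, against 111 and 75.3 FPKM in the wild-type libraries. Both MST1-deficient libraries lay above both wild-type ones, and the lower of the MST1-deficient values was 2.52 times the higher of the wild-type values. The means were 357 ± 109 FPKM in MST1-deficient and 93.3 ± 25.5 FPKM in wild-type cells (SD, n = 2 each), a ratio of 3.83.

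The estimated counts of the same transcript were 2303 and 1860 in MST1-deficient libraries, against 682 and 430 in wild-type libraries. On the log2(FPKM + 0.5) scale the difference was 1.92 with an SE of 0.42. The replicates of a group differed too: MST1-deficient replicate 1 and wild-type replicate 1 had the higher value of their groups. Y-linked genes moved the same way: the summed level of Kdm5d, Uty, Ddx3y and Eif2s3y, all 4 of them listed, was 23.4 and 14.8 FPKM in MST1-deficient libraries, against 3.6 and 0 FPKM in wild-type libraries. The labels give no sex, and the part of these genes' difference in that of Camk2b was not tested.

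Among the summed unannotated transcripts of all listed genes in a library, Camk2b ranked 7 of 4438 and 14 of 4311 by FPKM in the MST1-deficient libraries. In the wild-type libraries it ranked 28 of 4430 and 53 of 4319. By estimated counts, which do not correct for its short length, it ranked 25 and 45 in MST1-deficient and 295 and 455 in wild-type libraries. Of all listed counts it took 0.248% and 0.186% in MST1-deficient libraries, against 0.063% and 0.045% in the wild-type ones. The gene therefore stood near the top of the FPKM order in both genotypes.

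**Figure D1:**
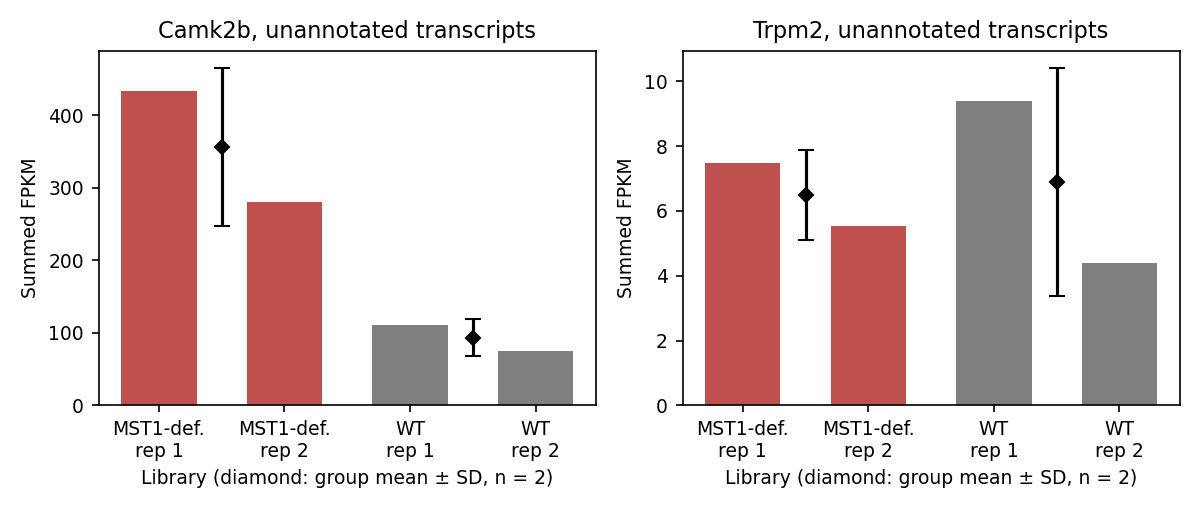
Summed FPKM of the unannotated transcripts of Camk2b (left) and Trpm2 (right) in each library, as bars from 0, with diamonds for the group mean ± SD (n = 2). Camk2b was 434 and 280 FPKM in MST1-deficient and 111 and 75.3 FPKM in wild-type libraries, while the Trpm2 values of the groups overlapped.

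The 906 bases of the Camk2b transcript are few for this gene. GENCODE M21 annotates 15 transcripts of Camk2b, of which the 10 protein-coding ones measure 1590 to 4023 bases, so the unannotated transcript was shorter than each of those. Among the remaining annotated transcripts, 3 were shorter than 906 bases. Among all unannotated transcripts of annotated genes, whose median length was 3882 bases, 2.2% were shorter. Which part of the gene it covers is not known here.

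The 6 unannotated forms of Trpm2 were long, from 7260 to 9935 bases. GENCODE M21 annotates 10 Trpm2 transcripts, and the longest of these, a protein-coding one, measures 7274 bases. Of the 6 unannotated forms, 5 were longer than that, and the form of 7260 bases was slightly shorter. The 6 forms were among the longer unannotated transcripts of the series, of which between 85.7% and 94.8% were shorter.

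**Figure D2:**
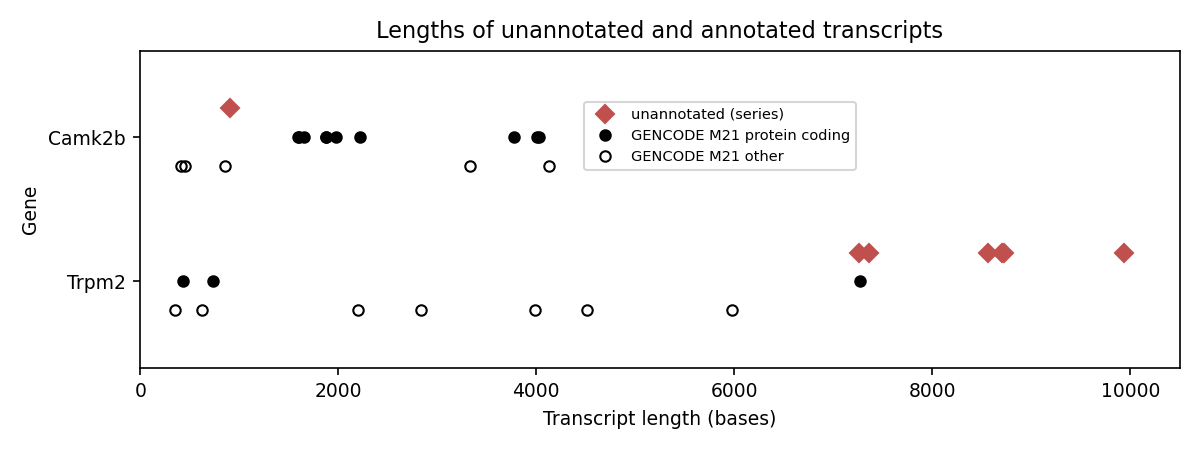
Transcript lengths in bases for each gene: unannotated transcripts of the series (diamonds), GENCODE M21 protein-coding transcripts (filled circles) and other GENCODE M21 transcripts (open circles). The Camk2b form of 906 bases lies below the coding transcripts of its gene, and 5 of the 6 Trpm2 forms lie above the longest annotated transcript of 7274 bases.

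The summed level of Trpm2 did not separate the groups. It was 7.47 and 5.52 FPKM in MST1-deficient libraries, against 9.39 and 4.40 FPKM in wild-type libraries, so that both MST1-deficient values lay between the wild-type ones. The means were 6.50 ± 1.38 FPKM in MST1-deficient and 6.90 ± 3.53 FPKM in wild-type cells (SD, n = 2 each), and the log2 difference was -0.01 with an SE of 0.55. Leaving out wild-type replicate 1 gave 0.50, leaving out replicate 2 of that group gave -0.51, and median centring gave 0.07. The wild-type libraries differed from each other by more than the MST1-deficient ones did. Estimated counts summed to 433 and 387 in MST1-deficient libraries, against 656 and 280 in wild-type libraries. Trpm2 thus ranked 1051 of 4438 and 1181 of 4311 genes by FPKM in MST1-deficient libraries, and 862 of 4430 and 1514 of 4319 in wild-type libraries.

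Beneath this level the forms of Trpm2 differed between libraries. Each MST1-deficient library listed 5 of the 6 forms and each wild-type library listed 4. Only the longest form was listed in all 4 libraries, 4 forms were listed in 3 libraries, and the form of 7364 bases was listed in 2. Of the 7 member transcripts, 6 reached 1 FPKM in at least 2 libraries, and the form that did not was novel_T000797. Between the genotypes 2 of the 7 were higher without overlap (Camk2b and the 7364-base Trpm2 form), 1 was lower without overlap (the 7260-base Trpm2 form) and 4 overlapped. Over all 4476 transcripts tested, 14.1% were higher and 18.9% lower without overlap; the members were picked with this contrast in view, so nothing is read from their own count.

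The form of 7364 bases, novel_T000796, was listed in the MST1-deficient libraries alone. It had 2.53 and 1.94 FPKM in these, against 0 FPKM in each wild-type library. Its estimated counts were 126 and 120 in MST1-deficient libraries against 0 and 0 in wild-type libraries. With a floor of 3 counts per library in place of the wild-type values, the form was 42.2-fold higher. Of the summed Trpm2 counts it made up 29.1% (126 of 433; 95% Wilson interval 25.0 to 33.5%) and 30.9% (120 of 387; 26.6 to 35.8%) in the MST1-deficient libraries. In the wild-type libraries it made up 0 of 656 and 0 of 280 counts. The floor of 3 counts over these sums allows shares of up to 0.46% and 1.07%. The Wilson upper bounds are 0.6% and 1.4%. The intervals, the limits and the fold rest on counts taken as independent. They do not cover the spread between pools or the error of splitting reads among forms. PCR copies, for which the labels describe no marking, are not covered either. Within the wild-type group, the 8727-base form had 261.5 and 0 counts. How common it is for a transcript to be listed in 1 genotype alone is not given here.

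The form of 7260 bases, novel_T000794, showed the opposite order. It had 0 and 0.35 FPKM in MST1-deficient libraries, against 1.39 and 1.18 FPKM in wild-type libraries. Its estimated counts were 0 and 21.1 in MST1-deficient and 79.3 and 62.2 in wild-type libraries. The MST1-deficient values lay below both wild-type ones. The forms of 7260 and 7364 bases differ by 104 bases in length, and their summed level was 2.53 and 2.29 FPKM in MST1-deficient libraries, against 1.39 and 1.18 FPKM in wild-type libraries, also without overlap. This sum was chosen after the values were seen.

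The longest form, novel_T000799 of 9935 bases, overlapped in level, with 1.73 and 0.96 FPKM in MST1-deficient libraries against 3.02 and 1.59 FPKM in wild-type libraries. As a share of the summed Trpm2 FPKM it was 23.2% and 17.4% in MST1-deficient libraries, below the 32.2% and 36.1% of wild-type libraries. The shares of a library are parts of a whole, so the 7364-base form lowers the rest in MST1-deficient libraries. The lower share is therefore not read as a trait of the longest form. The 9935-base form led in wild-type replicate 2 alone.

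The remaining 3 forms varied between libraries of the same genotype. The form of 8727 bases, novel_T000798, had 0.93 and 2.17 FPKM in MST1-deficient libraries, against 3.81 and 0 FPKM in wild-type libraries. It led in wild-type replicate 1, with 40.6% of the summed Trpm2 FPKM, and was at 0 in wild-type replicate 2. There the floor of 3 counts over the sum of 280 allows up to 1.07%. The form of 8566 bases, novel_T000797, had 0.85 and 0.10 FPKM in MST1-deficient libraries, against 0 and 1.04 FPKM in wild-type libraries. The form of 8709 bases, novel_T000795, had 1.43 and 0 FPKM in MST1-deficient libraries, against 1.17 and 0.59 FPKM in wild-type libraries. Each of these forms was thus at 0 in 1 library while the other library of that genotype held at least 1.04 FPKM.

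The forms of 8709 and 8727 bases differ by 18 bases in length, and their sum, also chosen after the values were seen, was 2.36 and 2.17 FPKM in MST1-deficient libraries against 4.98 and 0.59 FPKM in wild-type libraries. The deposited counts are estimates: 7.3% of the listed estimated counts were whole numbers (within 0.005). A value of 0 for a form is such an estimate too. How many bases the forms share is not known here.

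Averaged by group, the 7364-base form took 34.5 ± 0.8% of the Trpm2 FPKM in MST1-deficient cells, against 0% in wild-type cells (SD, n = 2 each). The 7260-base form took 3.2 ± 4.5% in MST1-deficient cells, against 20.8 ± 8.5% in wild-type cells. The 9935-base form took 20.3 ± 4.1% in MST1-deficient cells, against 34.2 ± 2.8% in wild-type cells. Since shares are parts of a whole, the 7364-base form lowers the rest in MST1-deficient cells. For the other 3 forms the SD within at least 1 group was larger than the difference between the group means. The FPKM-weighted mean length of a Trpm2 form was 8523 and 8362 bases in MST1-deficient libraries, against 8896 and 8730 bases in wild-type libraries. This mean includes the 7364-base form, for which Trpm2 was picked. It was not worked out without that form, so no separate trait is read from it. Without the 7364-base form the summed level was 4.94 and 3.58 FPKM in MST1-deficient libraries against 9.39 and 4.40 FPKM in wild-type libraries, which overlapped.

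**Figure D3:**
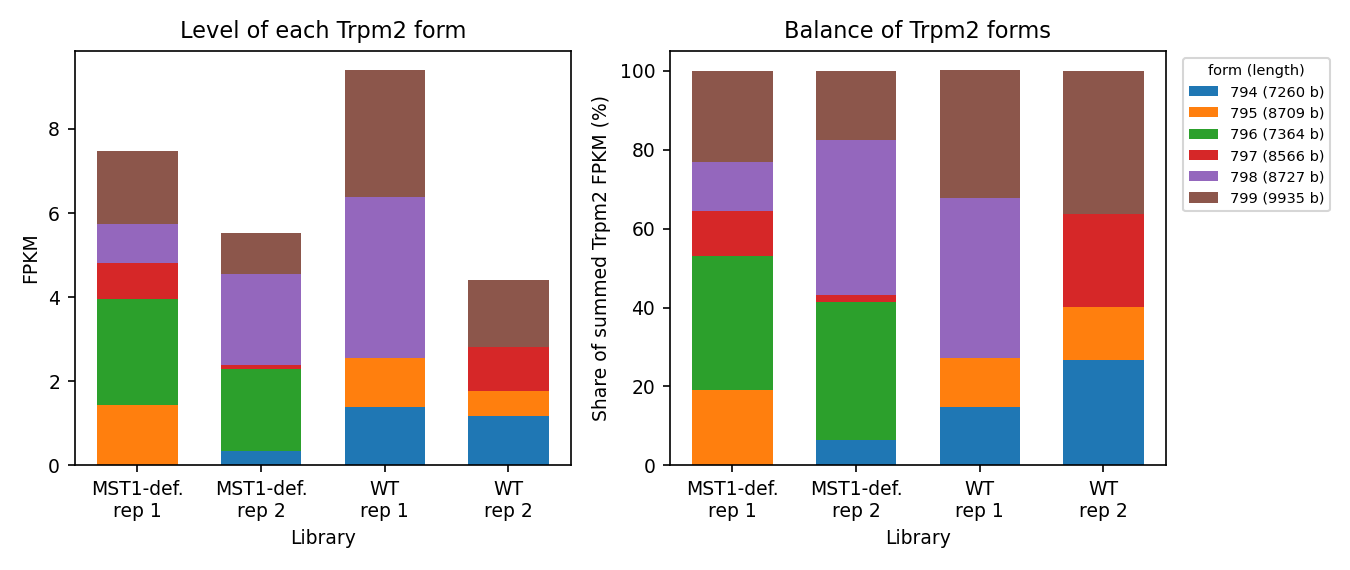
FPKM of the 6 unannotated Trpm2 forms in each library (left, stacked) and the share of each form in the summed Trpm2 FPKM in percent (right), with forms named by the end of their number and their length in bases. The form of 7364 bases (green) appears in both MST1-deficient libraries, at 33.9% and 35.1%, and in neither wild-type library.

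Close relatives of both genes showed low levels of unannotated transcripts, given here by family and outside the rule for naming genes. Of the other subunits of the same kinase, the gamma subunit gene Camk2g had 4.40 and 2.97 FPKM in MST1-deficient libraries, against 2.62 and 2.41 FPKM in wild-type libraries, without overlap (edgeR quasi-likelihood test, log2 fold change 0.59, adjusted p = 0.942). The alpha subunit gene Camk2a reached at most 0.05 FPKM and the delta subunit gene Camk2d at most 0.24 FPKM in any library. The inhibitor genes Camk2n1 and Camk2n2 were not listed. Among the 7 other TRPM channel genes, Trpm4 and Trpm7 were listed. Trpm4, a calcium-activated channel for monovalent cations, had 1.05 and 0.75 FPKM in MST1-deficient libraries and 0.98 and 0.81 FPKM in wild-type libraries, while Trpm7 was listed in wild-type replicate 1 alone, at 0.15 FPKM. Of the listed CaM kinase II genes, Camk2b thus had the most abundant unannotated transcripts in each library.

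Beyond the families, 9 lists of calcium genes held 158 genes other than Camk2b and Trpm2, of which 52 had an unannotated transcript and 27 passed the filter of at least 1 FPKM in at least 2 libraries. None of the 27 passed the edgeR threshold of 0.05, with adjusted p between 0.771 and 1. DESeq2 and limma called none of them either, and 1 of the 27, Camta2, had an unadjusted edgeR p under 0.05. Over all 3221 gene sums the share called by edgeR was 0%, with 181 genes at an unadjusted p under 0.05, 49 called by DESeq2 and 6 by limma. Of the 27 genes, 3 were higher and 6 lower without overlap (11.1% and 22.2%), beside 14% higher and 18.8% lower among all gene sums, and their median log2 difference was -0.05 beside -0.06. The share of calcium genes without overlap was near that of genes at large.

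The kinases and calmodulin-binding proteins were the list closest in function to Camk2b. All 5 tested members had log2 differences above 0, from 0.06 to 0.95 with a median of 0.45, where 45.1% of all gene sums were above 0. Of the 5, 2 were higher without overlap, where 14% of all gene sums were, and none passed the test. Camta2, a calmodulin-binding transcription activator, had 3.99 and 4.48 FPKM in MST1-deficient libraries, against 2.13 and 2.05 FPKM in wild-type libraries (edgeR log2 fold change 0.99, SE 0.31, unadjusted p = 0.0271, adjusted p = 0.771). Its relative Camta1 had 5.86 and 5.35 FPKM in MST1-deficient and 5.84 and 4.90 FPKM in wild-type libraries. Camkk2, a kinase that activates other CaM kinases, had 2.74 and 6.60 FPKM in MST1-deficient and 5.36 and 1.90 FPKM in wild-type libraries. Camkk1, its relative, named after its values were seen, had the difference of 0.95 and overlapped, with 2.19 and 1.06 FPKM in MST1-deficient and 1.74 and 0 FPKM in wild-type libraries. Camk1d, a CaM kinase I gene that did not pass the filter and was named after its values were seen, had 2.21 and 0.71 FPKM in MST1-deficient libraries, against 0 and 0 FPKM in wild-type libraries. Its estimated counts were 100.04 and 42.7 in MST1-deficient libraries, with none in wild-type libraries, and no test of it was made.

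The genes around the ADP-ribose that opens Trpm2 gave no common direction. Of 13 listed by name 4 were tested, 2 above and 2 below 0. Without overlap, 1 was higher and 1 lower, beside 14% and 18.8% of all gene sums. Oard1, which removes ADP-ribose from proteins, had 5.55 and 4.59 FPKM in MST1-deficient libraries, against 7.83 and 9.89 FPKM in wild-type libraries, without overlap (log2 fold change -0.76, SE 0.41, edgeR adjusted p = 0.942). Nudt5, which splits ADP-ribose, was higher without overlap (log2 fold change 0.38, SE 0.27, edgeR adjusted p = 0.994). It had 7.50 and 5.63 FPKM in MST1-deficient and 5.29 and 5.13 FPKM in wild-type libraries. Nudt9, a mitochondrial enzyme for the same reaction whose domain is related to the end of the Trpm2 channel, had 3.10 and 9.39 FPKM in MST1-deficient and 8.55 and 10.4 FPKM in wild-type libraries.

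Of the TRP channel list, 4 of 25 other genes were listed and 1 was tested. Trpv2, a calcium-permeable channel of leukocytes, had 11.1 and 7.55 FPKM in MST1-deficient libraries, against 6.58 and 11.1 FPKM in wild-type libraries, which overlapped. Mcoln2, an endolysosomal channel, was listed in replicate 1 of each group, at 0.58 FPKM in MST1-deficient and 0.22 FPKM in wild-type cells.

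Channels that release or refill stores overlapped between the groups, except 1 of 5 tested genes. Of all gene sums, 18.8% were lower without overlap. Stim1, the calcium sensor of the endoplasmic reticulum, had 12.0 and 16.9 FPKM in MST1-deficient and 16.0 and 18.2 FPKM in wild-type libraries. Orai2, a store-operated channel subunit, had 10.7 and 6.08 FPKM in MST1-deficient and 9.28 and 10.3 FPKM in wild-type libraries. Itpr1, a release channel of the endoplasmic reticulum, had 6.21 and 4.31 FPKM in MST1-deficient and 3.69 and 4.44 FPKM in wild-type libraries. The gene without overlap was the ryanodine receptor gene Ryr1, named because it was the 1 exception. It was lower, at 2.63 and 2.47 FPKM in MST1-deficient libraries against 3.53 and 3.54 FPKM in wild-type libraries (edgeR adjusted p = 0.994). Its estimated counts were few, 17.8 and 20.9 in MST1-deficient and 27.6 and 25.8 in wild-type libraries.

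The pumps and exchangers all overlapped among the 3 tested. Atp2a3, a pump of the endoplasmic reticulum, had 18.1 and 11.01 FPKM in MST1-deficient and 19.9 and 10.4 FPKM in wild-type libraries. Atp2b1, a pump of the plasma membrane, had 10.1 and 8.82 FPKM in MST1-deficient and 14.1 and 9.50 FPKM in wild-type libraries. Slc8a1, a sodium/calcium exchanger, was at 0 in MST1-deficient replicate 2 and between 1.13 and 1.68 FPKM in the other libraries. Of the mitochondrial uptake list, 1 of 11 genes was listed: Mcu, the pore of the uniporter, with 172 estimated counts in wild-type replicate 2 and 0 in the other 3 libraries.

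The 3 tested genes of the calcineurin and NFAT list had log2 differences below 0, 2 of them without overlap, where 45.1% of all gene sums were above 0 and 18.8% were lower without overlap. Cabin1, an inhibitor of calcineurin, had 26.0 and 24.5 FPKM in MST1-deficient libraries, against 32.3 and 28.9 FPKM in wild-type libraries (log2 fold change -0.22, SE 0.20, edgeR adjusted p = 0.994). Rcan3, another regulator of calcineurin, had 0.52 and 2.42 FPKM in MST1-deficient and 3.28 and 4.58 FPKM in wild-type libraries (-1.03, SE 0.81, adjusted p = 0.994). Rcan3 was the 1 gene of the 27 that had no overlap and a log2 difference of at least 1 in size, where 3.54% of all gene sums were higher and 5.18% lower by that rule. Nfat5, a transcription factor of the family, overlapped at 5.54 and 3.47 FPKM in MST1-deficient and 5.82 and 4.14 FPKM in wild-type libraries.

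Phospholipases C make the messenger that opens release channels, and 4 of that list were tested. Plcb2, a form typical of blood cells, had 27.7 and 21.9 FPKM in MST1-deficient and 19.9 and 22.0 FPKM in wild-type libraries. Plcb4 was lower without overlap, as were 18.8% of all gene sums. It had 2.18 and 1.97 FPKM in MST1-deficient against 2.57 and 2.74 FPKM in wild-type libraries (edgeR adjusted p = 0.994). Of the voltage-gated and purinergic channels, 2 of 25 were tested. The ATP-gated channel gene P2rx3 had 2.10 and 1.66 FPKM in MST1-deficient and 2.85 and 2.56 FPKM in wild-type libraries, without overlap (adjusted p = 0.991, edgeR). The channel genes Cacna1a and Cacna1d overlapped, with at most 1.80 FPKM in any library.

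**Figure D4:**
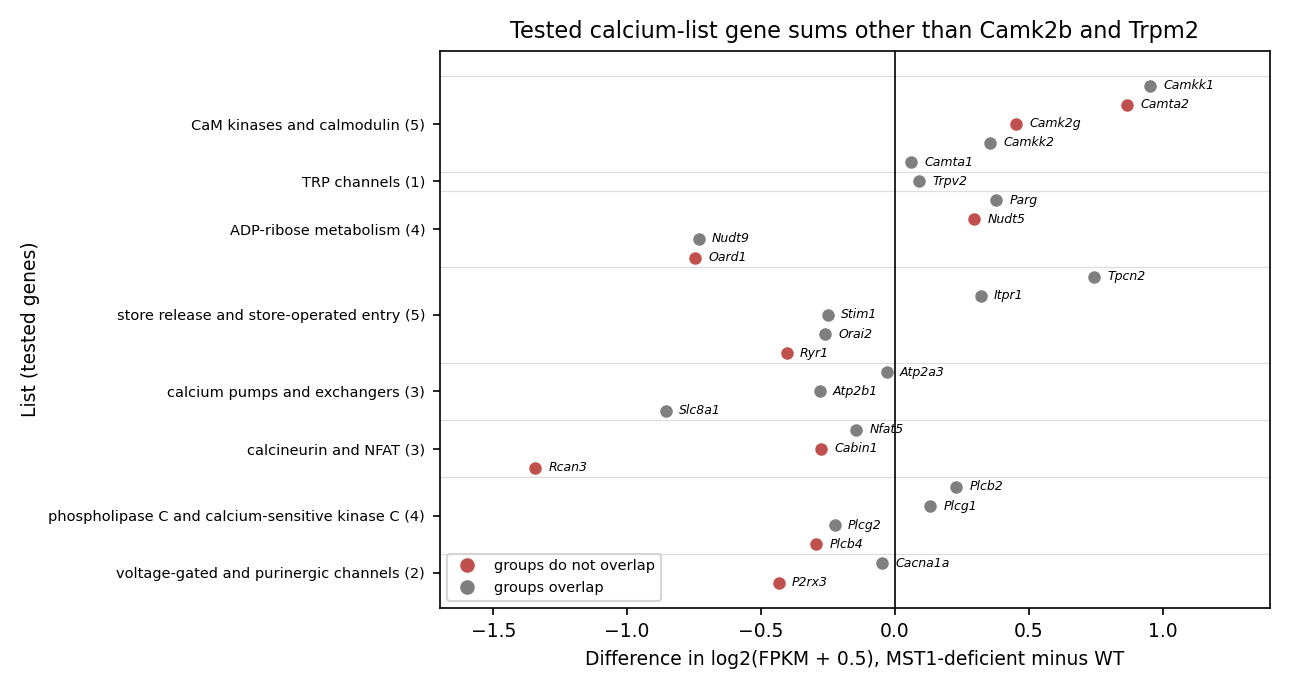
Difference in log2(FPKM + 0.5) between MST1-deficient and wild-type libraries for the 27 tested calcium genes other than Camk2b and Trpm2, grouped by list; coloured points are genes whose groups do not overlap. Points lie on both sides of 0, from -1.34 for Rcan3 to 0.95 for Camkk1, and none passed the edgeR threshold.

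Without overlap, 4 of the 36 tested transcripts of the same lists were higher and 9 lower, beside 14.1% and 18.9% of all 4476 transcripts. Among the 36, a transcript of Plcg1 and another of Tpcn2 were listed in both libraries of 1 genotype and in neither of the other. The share of all transcripts with that pattern is not given here. Of the 36, 0 passed with edgeR, 2 had an unadjusted p under 0.05, DESeq2 called 1 and limma 0. Over all 4476 transcripts the share called by edgeR was 0%, with 223 at an unadjusted p under 0.05 and 100 called by DESeq2. A transcript of Plcg1 of 5440 bases, encoding phospholipase C gamma, had 0 and 0 counts in MST1-deficient libraries, against 78.8 and 43.3 counts in wild-type libraries; this was the DESeq2 call (DESeq2 adjusted p = 0.00829; edgeR adjusted p = 0.389). Its other tested transcript, of 5195 bases, had 7.18 and 4.89 FPKM in MST1-deficient and 4.69 and 3.30 FPKM in wild-type libraries, and the Plcg1 sum overlapped, at 7.18 and 4.89 FPKM in MST1-deficient and 6.55 and 4.40 FPKM in wild-type libraries. A transcript of Tpcn2 of 2814 bases, encoding a channel of endolysosomes, had 37.8 and 28.1 counts in MST1-deficient libraries, against 0 and 0 counts in wild-type libraries (edgeR adjusted p = 0.432). Both were named after their values were seen.

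The genes around each locus had few unannotated transcripts. Of the 3 protein-coding genes on each side of Camk2b, 1 of 6 was listed: the RNA helicase gene Ddx56 had 0.28 and 0.32 FPKM in MST1-deficient libraries, against 0.40 and 0.07 FPKM in wild-type libraries. Ykt6, the closest at 1849 bases, had no listed transcript. Around Trpm2, 1 of 6 was listed as well: Cfap410, 8621 bases away, had 3.01 and 1.04 FPKM in MST1-deficient and 1.32 and 1.15 FPKM in wild-type libraries, which overlapped.

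Genes whose summed level followed that of Camk2b most closely over the 4 libraries were sought among 3220 others, by the distance between log2(FPKM + 0.5) values centred per gene. The nearest were Uty (distance 0.23), Exo1 (0.30), gene 100190996 (0.33), Slfn8 (0.39) and Mllt10 (0.43). Uty, a Y-linked gene, had 3.01 and 1.38 FPKM in MST1-deficient libraries, against 0.32 and 0 FPKM in wild-type libraries. Exo1, an exonuclease gene, had 3.94 and 2.47 FPKM in MST1-deficient and 0.90 and 0.49 FPKM in wild-type libraries. Slfn8, a member of the Schlafen family, had 20.3 and 11.02 FPKM in MST1-deficient and 6.18 and 3.46 FPKM in wild-type libraries. All 5 shared with Camk2b the order from MST1-deficient replicate 1 down to wild-type replicate 2.

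For Trpm2, genes of small distance were Plxdc1 (0.07), 2010315B03Rik (0.09), Pilrb2 (0.13) and Foxp4 (0.14). Plxdc1, a gene of the plexin-domain family, had 2.62 and 1.87 FPKM in MST1-deficient libraries, against 3.18 and 1.43 FPKM in wild-type libraries. Both lists describe likeness over these 4 libraries alone.

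**Figure D5:**
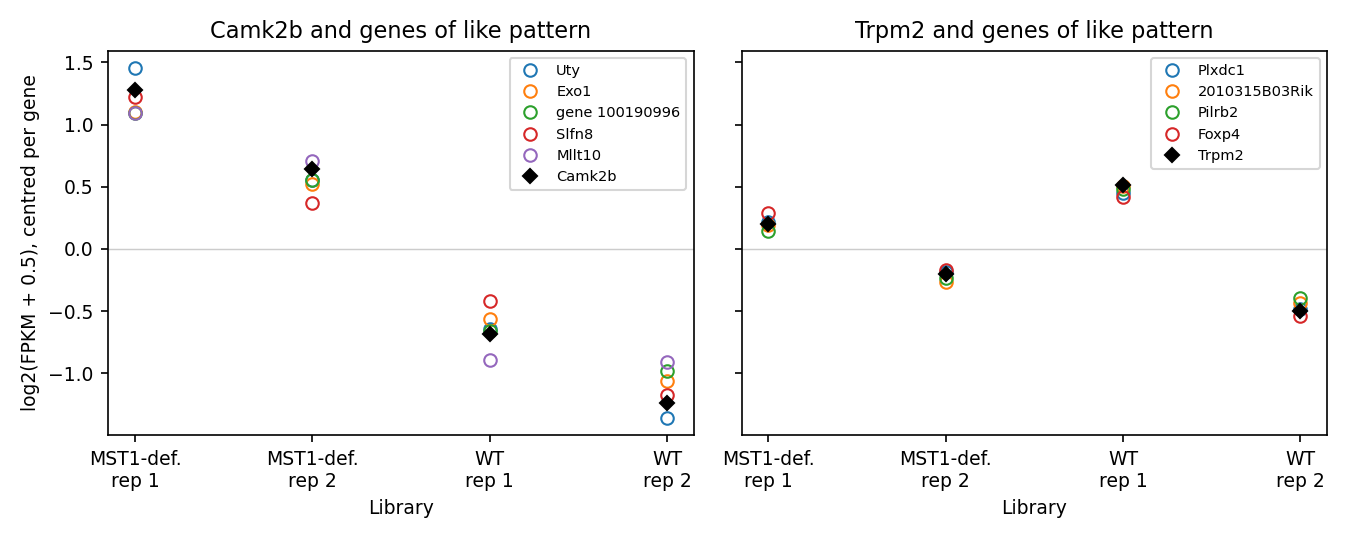
Values of log2(FPKM + 0.5), centred on each gene's mean, in the 4 libraries for Camk2b (left, diamonds) and Trpm2 (right, diamonds) with 5 and 4 genes of small distance (open circles). Camk2b and its neighbours in pattern are high in both MST1-deficient libraries, whereas Trpm2 and its neighbours are highest and lowest in the wild-type libraries.

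Listed counts per library summed to between 928977 and 1079382 over 6517 to 6774 transcripts. No unannotated transcript of Stk4 was listed, so the genotype rests on the labels. Of 14 progenitor markers, 3 (Gfi1, Kit and Csf2rb) had unannotated transcripts, and the absence of the others, such as Mpo and Elane, says nothing of the cells because annotated transcripts were not analysed here. The summed level of these 3 was 20.01 and 47.9 FPKM in MST1-deficient and 17.0 and 29.9 FPKM in wild-type libraries. Of 8 neuronal markers, chosen because Camk2b is known from nerve cells, only Camk2a was listed, at or below 0.05 FPKM.

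Marker lists of some other blood cells were lower in sum without overlap. Of all single gene sums 18.8% were, but the share among sums over several genes is not given here. The sums do not give the order of each marker. For T and NK cells, 5 of 8 markers were listed, with 18.4 and 12.2 FPKM in MST1-deficient and 37.3 and 28.4 FPKM in wild-type libraries, while Cd3e, Cd3d and Lck were not. For erythroid cells, 3 of 9 were listed, with 18.5 and 7.84 FPKM in MST1-deficient and 23.3 and 30.7 FPKM in wild-type libraries, while Gata1, Klf1 and the globin genes were not. For eosinophils, basophils and mast cells, 4 of 8 were listed, with 113 and 126 FPKM in MST1-deficient and 151 and 190.4 FPKM in wild-type libraries, while Prg2, Epx, Fcer1a and Cpa3 were not. The neutrophil (3 of 9), B lineage (3 of 8) and megakaryocyte (3 of 6) lists overlapped between the groups. In bulk sums of unannotated transcripts, fewer cells of a type, less RNA per cell and another balance of transcripts cannot be told apart. The part of these cells in the values of Camk2b and Trpm2 was not tested.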

How the data were processed

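RNA-seq files of 4 libraries (2 MST1-deficient, 2 wild-type) were used. Per the file headers, the deposited values of each unannotated transcript are an expected count, not normalised, and an FPKM, which corrects for length and depth. Per the submitters' processing notes reads were placed on mm10, with the aligner, assembler, estimator and annotation not given in the sources used here. FPKM of the 906-base transcript implied an effective length of 784 to 796 bases. Transcripts missing from a list were set to 0. Gene values are sums over unannotated transcripts; 5051 of 5059 gene numbers matched a symbol.

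Gene sums and transcripts of annotated genes were tested with edgeR 4.0.16 (quasi-likelihood, TMM, 2-sided, Benjamini-Hochberg) on rounded expected counts in R 4.3.3, with DESeq2 1.42.0 and limma 3.58.1 (log2(FPKM + 0.5)) as alternatives, after a filter of 1 FPKM in 2 libraries. Members, lists and naming rules were chosen with earlier results of these data known. Named genes were the 3 most abundant of each list and, among those past the filter, those without overlap and a log2 difference of at least 1; the 5 nearest patterns and 3 neighbours a side were added, of which 1 pattern gene is not reported here. An exact permutation test of 2 against 2 cannot go below 0.33 and was not used.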

Additional observations from a re-analysis of the deposited data

How the results depend on the processing

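The log2 difference of Camk2b stayed between 1.61 and 2.24 with each library left out, and between 1.79 and 2 over pseudocounts, TMM-scaled CPM, median centring and quantile normalisation. That of the Trpm2 sum ran from -0.51 to 0.50 with a library left out, its sign depending on which library that was (0.50 without wild-type replicate 1, -0.51 without wild-type replicate 2). For the 7364-base Trpm2 form the log2 difference was 4.53 with a pseudocount of 0.1, 1.69 with 1 and 8.3 on CPM, against 2.44 with 0.5, since the wild-type values are 0. For calcium gene sums the count of calls was 0 under each alternative; for calcium transcripts it was 1 with DESeq2 and 0 otherwise. Over all gene sums, 0 with edgeR, the count was 49 with DESeq2 and 6, 2 and 7 with limma at pseudocounts of 0.5, 0.1 and 1. It was 1 among genes above 0 in all 4 libraries and 2 with a filter of 5 FPKM. The replicate numbers were not shown to pair the libraries (correlation of deviations 0.127 over gene sums), and the replicate block gave 0 calls.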
